A study of Mus musculus with 12 samples.

Results

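The clustered protocadherins are cell-surface adhesion proteins encoded by 3 neighbouring gene clusters, alpha, beta and gamma, on mouse chromosome 18. Members were the protein-coding genes whose symbols start with Pcdha, Pcdhb or Pcdhg followed by the numbering of those clusters. They came to 57 of the 48709 gene identifiers counted, with 14 in the alpha, 22 in the beta and 21 in the gamma cluster. Pcdhgb8, a polymorphic pseudogene in the annotation, was left out. On mm10, the alpha genes lie within chr18:36930184-37187661, the beta genes within chr18:37264938-37524479 and the gamma genes within chr18:37661793-37841873, all on the plus strand.

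The data are 12 RNA-seq libraries of cortex from C57BL/6J embryos at stage E15.5. The 4 BAF155 cKO libraries are labelled as a conditional knockout of BAF155, the Smarcc1 product, which belongs to the core of the BAF complex that remodels chromatin. The label of 4 further libraries names a conditional knockout of the transcription factor Pax6, which their Pax6 level goes against, and the last 4 are controls. The labels give neither the Cre line, nor the cells in which it acts, nor the genotype of the controls, nor whether each library is 1 embryo. The p-values thus cover only how far these libraries scatter, which may reflect technical variation.

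In a developing neuron, each alpha or gamma variable exon has its own promoter and is spliced to constant exons shared by its cluster, while each beta gene is a single exon. Promoter choice differs from cell to cell, and CTCF and cohesin join the chosen promoters to distant enhancers. The C-type members at the ends of the alpha and gamma clusters are expressed more constitutively. The proteins bind their own kind across cell contacts, and in the mouse the gamma cluster is known for dendrite self-avoidance, dendrite growth and neuron survival.

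Library depth ran from 15.2 to 32 M reads, of which 7200 to 15482 reads fell on the members. Smarcc1 measured 127 ± 10.8 counts per M reads of TMM-scaled library size (CPM) in BAF155 cKO, 186 ± 6.71 CPM in the libraries labelled Pax6 cKO and 303 ± 68.7 CPM in control libraries (SD, n = 4 each). Pax6 went against its label, at 389 ± 8.74 CPM in the libraries labelled Pax6 cKO, against 110 ± 19.1 CPM in control libraries. BAF155 cKO was also above control for Pax6, at 314 ± 40.3 CPM (log2 fold change 1.51, adjusted p = 9.98e-07, edgeR). Between BAF155 cKO and the libraries labelled Pax6 cKO, Pax6 did not pass (-0.31, adjusted p = 0.152, edgeR). A read count over the whole gene does not show whether a floxed exon was removed. Xist ran at 1810 to 3110 CPM in BAF155 cKO and at most 2.93 CPM in the libraries labelled Pax6 cKO, while control replicates 1 and 2 had at most 5.75 CPM and replicates 3 and 4 each had 964 CPM. BAF155 cKO and the libraries labelled Pax6 cKO thus differ in sex and the control group holds both sexes. All 15 markers of cortical progenitors and neurons were detected, and their sum was lower in every BAF155 cKO library (3730 to 5180 CPM) and every library labelled Pax6 cKO (4170 to 4950 CPM) than in controls (5340 to 6650 CPM). Of the 15, 7 and 11 were called lower and 1, Pax6, was called higher in each comparison. Per the file names, the controls were sequenced on lane 8, the libraries labelled Pax6 cKO on lane 1 and BAF155 cKO on lanes 1 and 3, so the lane and the control group cannot be told apart.

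How the reads were counted limits which part of a gene each value describes. In the GENCODE M21 annotation, 7 to 51.4% of an alpha gene's exon bases belong to no other gene, against 0 to 68.5% for gamma genes, and 19 of the 22 beta genes have no base shared with another gene. Across the files, 94.7% of the 1063 genes with no exon base of their own had 0 reads in all 12 libraries, against 34.4% of the other 47286 genes. Reads over shared exons were thus mostly not counted, and alpha and gamma values come mainly from the variable first exons. Within those exons, up to 23.4% of the stretches of 50 bases in an alpha gene, 16.8% in a gamma gene and 12% in a beta gene recur in another member, so reads can move between close paralogs such as Pcdha7 and Pcdha8, Pcdhgb1 and Pcdhgb2, or Pcdhb11 and Pcdhb12.

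Of the 57 members, 53 passed the filter on low counts. Pcdhga10 had 0 reads in all 12 libraries, and all its exon bases are also covered by other genes. Pcdhb1, the first beta gene, had 0 or 1 read per library. Pcdha4, which has 404 exon bases of its own, had 0 to 7 reads. The symbol Pcdha11 is carried by 2 identifiers, and ENSMUSG00000102206 had 1 or 2 reads per library. The values given below for Pcdha11 belong to ENSMUSG00000007440.

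Per length, the gamma C-type Pcdhgc3, which in mouse cortical neurons promotes dendrite growth, was the highest member of all. Its level was 31.3 ± 3.53 reads per kilobase of own exon per M reads (RPKM) in BAF155 cKO, 30.3 ± 4.23 RPKM in the libraries labelled Pax6 cKO and 37.3 ± 3.47 RPKM in controls. Pcdhga11 came next at 13.8 RPKM in BAF155 cKO, 10.2 RPKM in the libraries labelled Pax6 cKO and 15.7 RPKM in controls, followed by Pcdhgb6 at 8.87, 7.39 and 10.8 RPKM in the same order of groups. The SD of Pcdhga11 over the controls was 4.13 RPKM, close to its distance from Pcdhgb6. Over all exon bases, shared ones included, Pcdhgc3 was still first, at 12.3 RPKM in controls. Pcdhga11 came to 4.15 RPKM there, below Pcdhgb6 at 5.90, Pcdhgc4 at 4.80 and Pcdhga3 at 4.37 RPKM.

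The alpha cluster was led by its C-type Pcdhac2, at 4.55 RPKM in BAF155 cKO, 3.89 RPKM in the libraries labelled Pax6 cKO and 5.21 RPKM in controls. Pcdha9 was next at 2.94, 2.63 and 3.2 RPKM. In the beta cluster, Pcdhb7 measured 4.91, 4.53 and 3.73 RPKM and Pcdhb17 measured 3.82, 3.91 and 3.41 RPKM in BAF155 cKO, the libraries labelled Pax6 cKO and controls. The tested genes spanned a wide range, with Pcdha1 lowest in controls at 0.143 RPKM and a median of 5.33 RPKM for gamma, 1.57 RPKM for alpha and 1.24 RPKM for beta genes there.

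**Figure D1:**
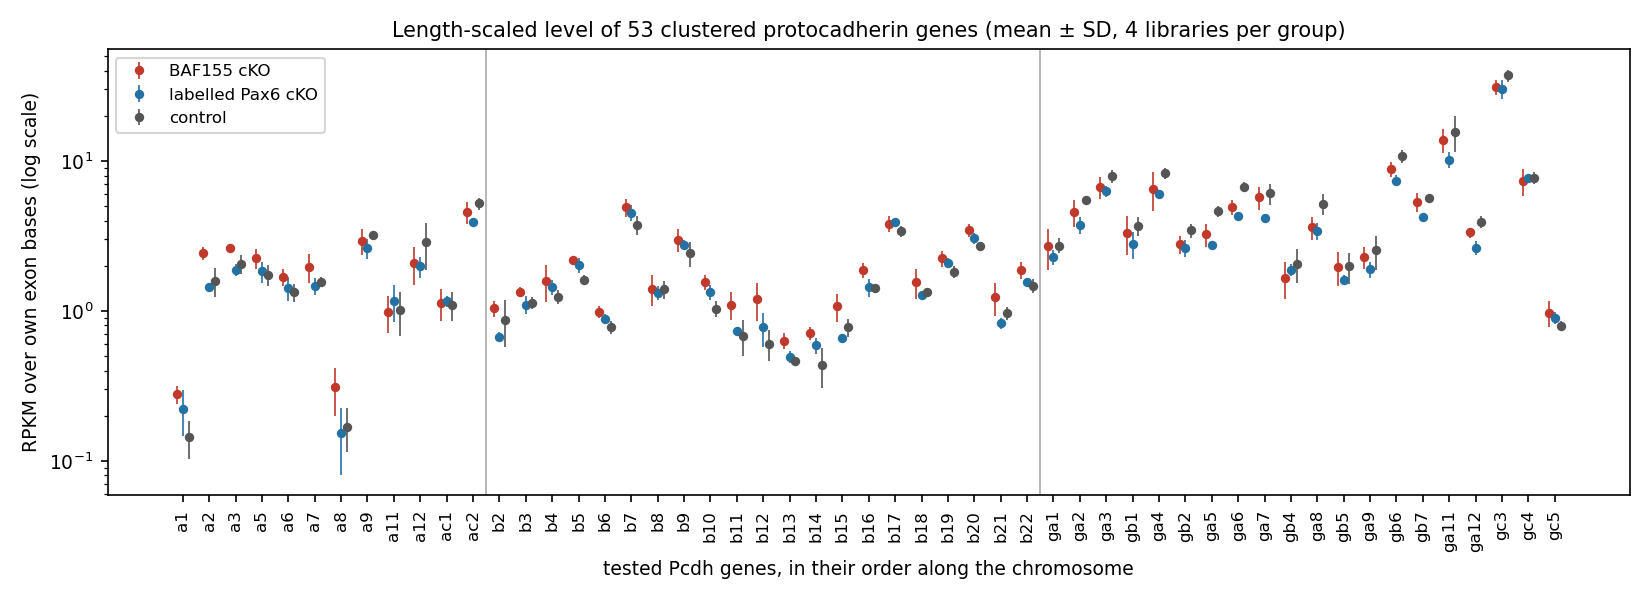
Length-scaled level of each of the 53 tested members (RPKM over exon bases that no other gene covers, log scale), in chromosomal order within the alpha, beta and gamma clusters, which the vertical lines separate. Points are means and bars SD over 4 libraries for BAF155 cKO, the libraries labelled Pax6 cKO and controls, and Pcdhgc3 stands highest in all 3 groups.

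Summed over a cluster, the beta genes were higher and the gamma genes lower in BAF155 cKO and in the libraries labelled Pax6 cKO than in controls, on average. Beta genes added up to 134, 175, 171 and 158 CPM in the 4 BAF155 cKO libraries, 135, 148, 131 and 140 CPM in libraries labelled Pax6 cKO, and 132, 127, 126 and 118 CPM in controls. Every BAF155 cKO library lay above every control, replicate 1 only just, while 1 of the libraries labelled Pax6 cKO fell within the control range. Gamma genes added up to 240, 315, 318 and 249 CPM in BAF155 cKO, 237, 277, 242 and 242 CPM in libraries labelled Pax6 cKO, and 323, 298, 345 and 346 CPM in controls. All 4 libraries labelled Pax6 cKO lay below all controls, whereas BAF155 cKO replicates 2 and 3 lay inside the control range.

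The ratio of summed beta to summed gamma level was higher in every BAF155 cKO library and every library labelled Pax6 cKO than in every control. It was 0.559, 0.554, 0.537 and 0.635 in BAF155 cKO, 0.569, 0.533, 0.542 and 0.58 in the libraries labelled Pax6 cKO, and 0.408, 0.426, 0.364 and 0.34 in controls. The same 4 controls serve both comparisons. The alpha sum averaged 57.3 ± 7.92 CPM in BAF155 cKO, 47.5 ± 3.16 CPM in the libraries labelled Pax6 cKO and 54.5 ± 2.08 CPM in controls (SD, n = 4), with overlapping libraries. In bulk tissue, fewer expressing cells and less RNA per cell cannot be told apart.

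**Figure D2:**
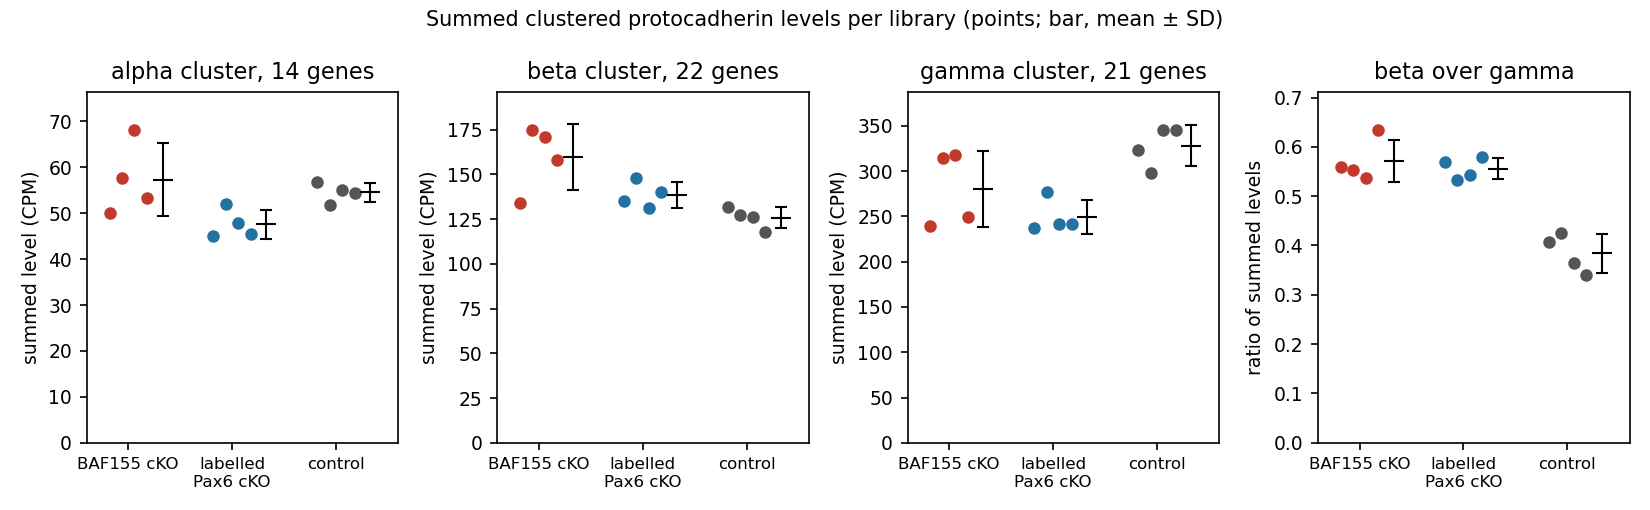
Summed level of the alpha, beta and gamma genes (CPM) and the ratio of the beta to the gamma sum, with 1 point per library and the mean ± SD beside each group. The beta over gamma ratio lies between 0.533 and 0.635 in the 8 libraries of BAF155 cKO and labelled Pax6 cKO, and between 0.34 and 0.426 in the 4 controls.

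Markers of cell types and the mitochondrial share differed between the groups and, in part, between libraries of a group. The 12 pan-neuronal markers summed to 7220, 8700, 8930 and 7120 CPM in BAF155 cKO replicates 1 to 4, to 7940, 9070, 8240 and 8710 CPM in libraries labelled Pax6 cKO, and to between 8800 and 9220 CPM in controls. In BAF155 cKO the low gamma sums of replicates 1 and 4 stood with low pan-neuronal sums, and other lists were also lower there than in replicates 2 and 3. In replicates 1 to 4, the 7 endothelial markers summed to 111, 179, 175 and 133 CPM. The 8 microglia markers summed to 44.1, 56.1, 62.7 and 53.9 CPM, and the 6 thalamus markers to 214, 255, 276 and 250 CPM. Among the libraries labelled Pax6 cKO, replicate 2 was highest in both the gamma and the pan-neuronal sum, while replicates 3 and 4 had the same gamma sum of 242 CPM at different pan-neuronal sums. Mitochondrial transcripts took 2.92, 1.57, 2.09 and 3.27% of reads in BAF155 cKO, 2.04 to 2.91% in the libraries labelled Pax6 cKO and 1.21 to 2.27% in controls. The 11 radial glia markers summed to 2450 to 2710 CPM in BAF155 cKO, 2680 to 2870 CPM in the libraries labelled Pax6 cKO and 3400 to 3530 CPM in controls. The 12 ventral and GABAergic markers summed to 1220 to 1350 CPM, 1440 to 1560 CPM and 603 to 891 CPM in the same groups. The 8 Cajal-Retzius markers summed to 604 to 631 CPM in BAF155 cKO, 758 to 807 CPM in the libraries labelled Pax6 cKO and 412 to 558 CPM in controls. These 3 sums separated the controls from the other libraries but did not follow the gamma sum from library to library within BAF155 cKO. The 5 choroid plexus markers summed to 3.22 to 13 CPM in BAF155 cKO, 15.2 to 329 CPM in libraries labelled Pax6 cKO, highest in replicate 2, and 11.7 to 28.6 CPM in controls. Erythroid markers, 7 in number, summed to 388, 339, 401 and 661 CPM in BAF155 cKO replicates 1 to 4. Their sum was 498 to 556 CPM in libraries labelled Pax6 cKO and 269 to 371 CPM in controls. The 6 liver markers, which include the choroid plexus marker Ttr, summed to 3.42, 13.6, 34.4 and 198 CPM in BAF155 cKO. They summed to 14.2 to 319 CPM in libraries labelled Pax6 cKO and 10.2 to 26.5 CPM in controls. The part of these shifts in the protocadherin values was not tested.

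The comparison of BAF155 cKO with control, 1 of the 2 that the series names, asks what loss of the BAF subunit changes. Of the 53 tested members, 8 were higher and 3 lower in BAF155 cKO at a Benjamini-Hochberg adjusted p under 0.05 over all genes (edgeR quasi-likelihood test). Among all 16511 genes tested, 6.04% were called higher, 7.56% lower and 13.6% in either direction. In 10 members every BAF155 cKO library lay above every control, as in 6.47% of all genes, and in 3 every one lay below, as in 7.95% of all genes. The beta cluster held 7 of the 8 higher calls and none of the lower ones. All 21 tested beta genes had a log2 fold change above 0, with a median of 0.35, against a median of 0.01 for all genes. No beta gene was lower at an unadjusted p under 0.05 either (0 of 21), nor by DESeq2 (0) or limma-voom (0). The higher calls were sensitive to the libraries used: 0 of the 8 held in a fit of the 8 compared libraries alone. Over all genes, 379 of 15864 were called higher in that fit, against 998 of 16511 in the main fit. Without BAF155 cKO replicate 4, 1 member was called higher, beside 346 of 16765 genes. Without control replicate 4, 1 member was called higher, beside 496 of 16822 genes.

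Beta protocadherins lack the shared cytoplasmic domain of the other clusters and carry the same extracellular recognition repeats. Pcdhb10 measured 3.73, 4.82, 4.88 and 4.40 CPM in BAF155 cKO and 2.51, 3.13, 3.34 and 2.82 CPM in controls. The groups did not overlap, and Pcdhb10 rose by 0.60 ± 0.15 on the log2 scale (SE; adjusted p = 0.0184, edgeR). Pcdhb5 measured 7.26, 7.46, 7.99 and 8.30 CPM in BAF155 cKO, against 6.21, 5.54, 5.27 and 5.73 CPM in controls, again without overlap (log2 fold change 0.44, adjusted p = 0.0257, edgeR). The call of Pcdhb10 was lost without control replicate 4 (adjusted p = 0.0504), and that of Pcdhb5 without BAF155 cKO replicate 4 or control replicates 3 or 4 (adjusted p up to 0.0844, edgeR).

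Pcdhb14 had 5.44, 6.71, 5.96 and 6.58 CPM in BAF155 cKO, and 4.92, 2.65, 4.54 and 2.96 CPM in controls. Its controls fell into a higher and a lower pair, both under every BAF155 cKO library (log2 fold change 0.70, adjusted p = 0.0233, edgeR). Pcdhb11 had 3.92, 4.53, 4.69 and 6.32 CPM in BAF155 cKO, and 4.07, 3.22, 2.27 and 2.53 CPM in controls, with BAF155 cKO replicate 1 below control replicate 1 (0.66, adjusted p = 0.034). Pcdhb12 was the lowest of the called beta genes, at 0.815, 1.71, 1.46 and 1.34 CPM in BAF155 cKO and 0.859, 0.663, 0.483 and 0.669 CPM in controls. The groups of Pcdhb12 overlapped, and its log2 fold change of 0.96 had an SE of 0.28 (adjusted p = 0.0367, edgeR). Pcdhb12 and Pcdhb11 are each other's closest relatives by shared 50-base stretches, so reads of the pair may be hard to assign. Leaving out 1 library ended the call of Pcdhb14 in 3 of 12 fits (BAF155 cKO replicate 4, control replicates 2 and 4; adjusted p up to 0.0715, edgeR). It ended that of Pcdhb11 in 5 and that of Pcdhb12 in 6, each with BAF155 cKO replicates 3 and 4 and control replicates 2, 3 and 4 among them and, for Pcdhb12, BAF155 cKO replicate 2 (adjusted p up to 0.127).

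Pcdhb16 had 9.05, 11.1, 10.4 and 8.81 CPM in BAF155 cKO, and 7.27, 7.20, 8.12 and 7.21 CPM in controls. Pcdhb20 had 10.8, 13.2, 13.4 and 11.9 CPM in BAF155 cKO, and 8.89, 10.3, 9.81 and 9.65 CPM in controls. Both were higher in every BAF155 cKO library than in every control, with log2 fold changes of 0.40 (adjusted p = 0.0424, edgeR) and 0.35 (adjusted p = 0.0441, edgeR), and both calls were lost in 10 of the 12 fits that left out 1 library. The other 14 beta genes did not pass, with log2 fold changes between 0.01 for Pcdhb8 and 0.47 for Pcdhb15. The abundant Pcdhb7 had 13.9, 18.3, 19.2 and 17.3 CPM in BAF155 cKO and 13.9, 15.2, 11.9 and 11.1 CPM in controls (log2 fold change 0.39, adjusted p = 0.0582, edgeR).

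Gamma genes tended the other way, with 19 of 20 log2 fold changes below 0 and a median of -0.24. The 3 called genes were all of the gamma-A type. Pcdhga6 fell to 11.8, 12.6, 15.2 and 12.3 CPM in BAF155 cKO, against 18.6, 16.2, 18.7 and 17.0 CPM in controls. Its groups did not overlap, it fell by 0.45 ± 0.10 on the log2 scale (SE; adjusted p = 0.00969, edgeR), and it was called in all 12 fits that left out 1 library. Pcdhga5 measured 6.48, 9.99, 7.93 and 8.68 CPM in BAF155 cKO and 12.8, 10.6, 12.4 and 11.6 CPM in controls, a log2 fold change of -0.52 (adjusted p = 0.0183, edgeR), and was not called without BAF155 cKO replicate 1 or control replicate 3 (adjusted p up to 0.0524).

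Pcdhga8 measured 6.83, 9.14, 8.05 and 6.13 CPM in BAF155 cKO and 10.2, 9.61, 10 and 13.5 CPM in controls (log2 fold change -0.52, adjusted p = 0.035, edgeR). It was lost without BAF155 cKO replicates 1 or 4, control replicates 3 or 4, or replicate 3 of the libraries labelled Pax6 cKO (adjusted p up to 0.118). None of the 6 tested gamma-B genes passed, at log2 fold changes from -0.31 to -0.01, and 2 of them were lower at an unadjusted p under 0.05, with 0 called by DESeq2 or limma-voom. No gamma gene was called higher by edgeR, DESeq2 or limma-voom, and 0 of 20 were higher at an unadjusted p under 0.05.

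Along the alpha cluster the changes differed by position, a pattern picked out after the values were seen. The 7 tested genes at its 5′ end, Pcdha1 to Pcdha8, had log2 fold changes from 0.31 to 0.95 with a median of 0.36. The highest were Pcdha1 at 0.95 ± 0.32 and Pcdha8 at 0.85 ± 0.39 (SE), both below 1 CPM on average in either group. Under a filter of 1 CPM in 4 libraries, 10 alpha genes were tested, with a median of 0.17 against 0.32 for the 12. The other 5, Pcdha9 to Pcdhac2, ran from -0.49 to 0.00 with a median of -0.12. Spearman's rho between gene order and log2 fold change was -0.83 across these 12 genes, which share libraries and, in their first exons, sequence, and 0.02 across the 21 beta genes and 0.32 across the 20 gamma genes.

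Pcdha2 was the 1 alpha gene called, at 5.32, 6.75, 5.90 and 6.38 CPM in BAF155 cKO and 2.91, 3.79, 4.11 and 4.97 CPM in controls. The groups did not overlap (log2 fold change 0.63 ± 0.16, SE; adjusted p = 0.0166, edgeR), and the adjusted p was 0.0507 without BAF155 cKO replicate 4. Pcdha3 also lay above every control, at 5.94, 7.10, 6.34 and 6.45 CPM against 4.07, 5.40, 5.66 and 5.21 CPM in controls, and did not pass (log2 fold change 0.35, adjusted p = 0.0875, edgeR). Pcdha9, the most abundant non-C-type alpha gene, measured 6.72, 6.92, 9.39 and 6.19 CPM in BAF155 cKO and 7.73, 8.34, 8.27 and 7.40 CPM in controls, with overlapping groups (-0.12, adjusted p = 0.568).

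Gamma levels were lower than control mainly in BAF155 cKO replicates 1 and 4, while beta levels leaned higher in both pairs of libraries. The alpha, beta and gamma sums were all lower in replicates 1 and 4 than in replicates 2 and 3. With replicates 1 and 4, 18 of 21 beta log2 fold changes were above 0, and with replicates 2 and 3 all 21. Replicates 1 and 4, the pair with more mitochondrial reads, taken alone against control, gave a gamma median of -0.43 with 13 of 20 genes lower, and a beta median of 0.23 with 3 of 21 higher. Replicates 2 and 3 alone gave a gamma median of -0.03 with 0 lower, and a beta median of 0.46 with 6 of 21 higher. Over all genes, 34.2% were called with the first pair and 3.81% with the second, a split added after the data were seen. By lane, the beta median was 0.32 for the lane 1 pair and 0.39 for the lane 3 pair, and the gamma median -0.25 and -0.22, with at most 3 members called higher and 1 lower in either pair. Over all genes, 3.75% were called in either direction for the lane 1 pair and 9.52% for the lane 3 pair. With control replicates 3 and 4 alone, of the same sex as BAF155 cKO, 6 members were higher and 5 lower, beside 26% of all genes called in either direction.

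**Figure D3:**
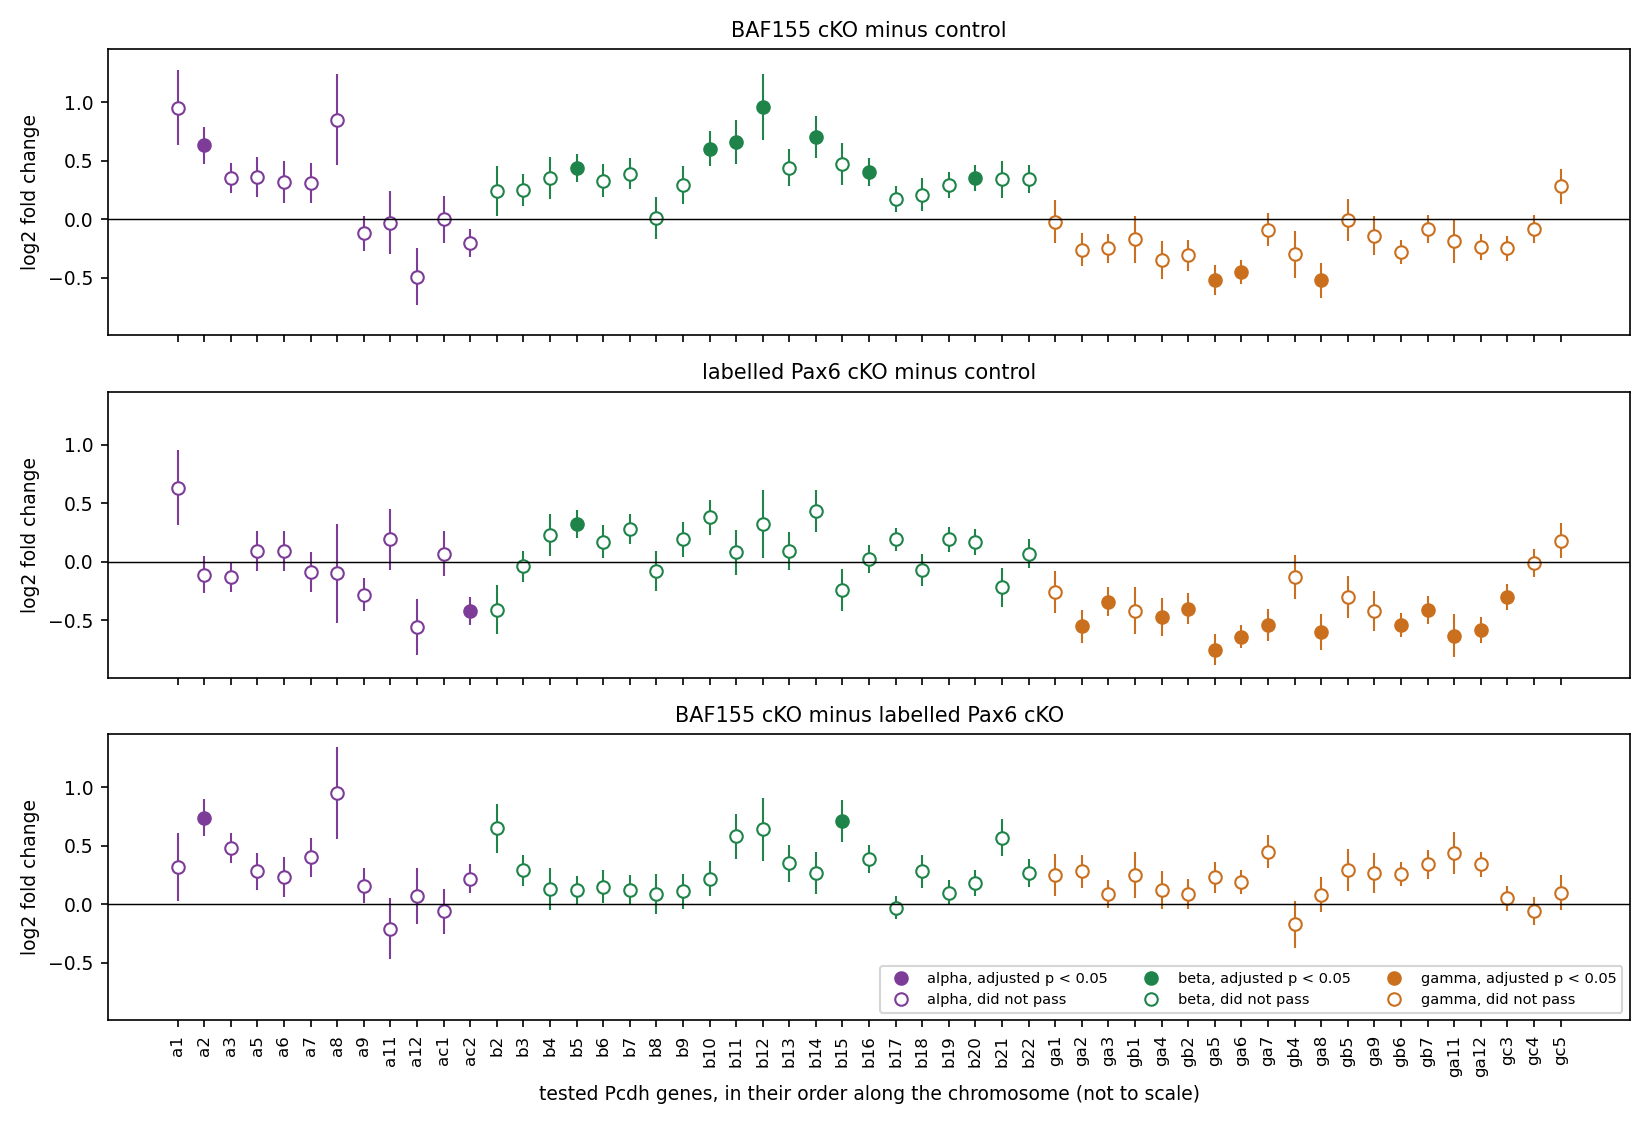
Log2 fold change ± SE (edgeR) of the 53 tested members in their order along the chromosome, with the BAF155 cKO comparison to control at the top, that of the libraries labelled Pax6 cKO below it, and the contrast of BAF155 cKO with the libraries labelled Pax6 cKO lowest. Filled points passed an adjusted p under 0.05; in the upper panels the beta genes lie mostly above 0 and the gamma genes mostly below it, and in the lowest panel 48 of 53 points lie above 0.

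The second named comparison sets the libraries labelled Pax6 cKO against the same controls. There, 14 members were lower and 1 higher, beside 18.9% of all genes called lower, 16.6% called higher and 35.5% called in either direction. In 11 members every library labelled Pax6 cKO lay below every control, as in 18.3% of all genes, and in 2 every one lay above, as in 17.2% of all genes. The gamma cluster held 13 of the 14 lower calls, among 20 tested genes with a median log2 fold change of -0.42, against 0.02 for all genes. They were 9 of the 11 tested gamma-A genes, 3 of the 6 gamma-B genes and the C-type Pcdhgc3. No gamma gene was higher by edgeR, DESeq2 or limma-voom, or at an unadjusted p under 0.05 (0 of 20).

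Pcdhga6 again had the smallest adjusted p, at 11.5, 11.2, 11.6 and 10.9 CPM in libraries labelled Pax6 cKO and 18.6, 16.2, 18.7 and 17.0 CPM in controls. It fell by 0.64 ± 0.10 on the log2 scale (SE; adjusted p = 0.000352, edgeR). Pcdhga5 had 6.50, 6.99, 7.59 and 7.16 CPM in libraries labelled Pax6 cKO and 12.8, 10.6, 12.4 and 11.6 CPM in controls, the largest fall of the 20 gamma genes (-0.75, adjusted p = 0.00085). For both genes the groups were far apart compared with the spread within either.

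Pcdhga12 measured 11.2, 12.5, 9.94 and 10 CPM in libraries labelled Pax6 cKO and 17.4, 16.2, 17.1 and 14.2 CPM in controls (log2 fold change -0.58, adjusted p = 0.00137, edgeR). Pcdhgb6 measured 18.8, 21.2, 17.7 and 18 CPM and, in controls, 27.3, 24.6, 31.2 and 27.5 CPM (-0.54, adjusted p = 0.00143, edgeR). Pcdhga8 had 6.11, 8.29, 7.07 and 7.12 CPM, against 10.2, 9.61, 10 and 13.5 CPM in controls (-0.60, adjusted p = 0.00695). In these 3 genes all 4 libraries labelled Pax6 cKO lay below all controls.

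Pcdhga7 had 10.6, 10.7, 10 and 11.6 CPM in libraries labelled Pax6 cKO, against 14, 13, 18 and 17.4 CPM in controls (log2 fold change -0.54, adjusted p = 0.00725, edgeR). Pcdhga2 had 8.12, 10.9, 10.2 and 9.26 CPM, against 15.0, 12.7, 14.4 and 14.2 CPM in controls (-0.55, adjusted p = 0.00734). Pcdhga11 had 11.7, 14.7, 11.4 and 13.4 CPM, against 18.3, 13, 23.4 and 24.3 CPM in controls, where control replicate 2 fell among the libraries labelled Pax6 cKO (-0.63, adjusted p = 0.0137). The other lower calls, Pcdhgb7, Pcdhgb2, Pcdhga4, Pcdhga3 and Pcdhgc3, had log2 fold changes from -0.47 to -0.30. Of the 13 lower gamma genes, 8 were called in all 12 fits that left out 1 library; Pcdhga11 was lost without control replicates 3 or 4 (adjusted p up to 0.0534, edgeR), and Pcdhgb2, Pcdhga4, Pcdhga3 and Pcdhgc3 in 4 to 6 of the 12. Gamma genes that did not pass ran from -0.42 for Pcdhgb1 and Pcdhga9 to 0.18 for Pcdhgc5.

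Only 1 of the 21 tested beta genes passed in this comparison. Pcdhb5 measured 6.29, 8.21, 6.80 and 7.29 CPM in libraries labelled Pax6 cKO and 6.21, 5.54, 5.27 and 5.73 CPM in controls, a log2 fold change of 0.32 (adjusted p = 0.0434, edgeR) that was lost in 8 of the 12 fits that left out 1 library. The beta median was 0.17, with 15 genes above 0 and 6 below. Pcdhb10, at 3.43, 4.43, 3.78 and 3.67 CPM in libraries labelled Pax6 cKO and 2.51, 3.13, 3.34 and 2.82 CPM in controls, did not pass (0.38, adjusted p = 0.0595). The abundant Pcdhb17 measured 17.9, 20.1, 17.0 and 17.8 CPM and, in controls, 15.4, 17.2, 16.6 and 14.4 CPM (0.19, adjusted p = 0.159).

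In the alpha cluster, the C-type Pcdhac2, known in the mouse for the spacing of serotonergic axons, was the 1 gene called. It fell to 11.5, 12.1, 12.7 and 10.7 CPM in libraries labelled Pax6 cKO, against 17.9, 15.2, 14.7 and 15.2 CPM in controls, without overlap (log2 fold change -0.42 ± 0.12, SE; adjusted p = 0.0132, edgeR). The 5′ alpha genes Pcdha1 to Pcdha8 had a median of -0.09. Spearman's rho of order and log2 fold change over the 12 alpha genes was -0.41.

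How many gamma genes passed depended on the libraries used, in both groups. With control replicates 1 and 2 alone, of the same sex as the libraries labelled Pax6 cKO, 5 members were lower and 0 higher, beside 10.1% of all genes called in either direction, and the gamma median was -0.35. The 5 genes were Pcdhga6, Pcdhga5, Pcdhga12, Pcdhgb6 and Pcdhac2. Without control replicate 3, the count was 9 lower and 0 higher, beside 22.7% of all genes called in either direction. Without replicate 1, 3 or 4 of the libraries labelled Pax6 cKO, 9 gamma genes were lower each time, against 13 in the main fit. The shares of all genes called were then 27.2%, 25.9% and 27.5%.

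The 5 C-type genes differed among themselves. Pcdhgc3 measured 51.3, 62.9, 62.2 and 51.6 CPM in BAF155 cKO, 52.4, 66.4, 52.9 and 49.0 CPM in libraries labelled Pax6 cKO, and 66.6, 62.6, 77.0 and 65.4 CPM in controls. Only its change in the libraries labelled Pax6 cKO passed (log2 fold change -0.30, adjusted p = 0.0414, edgeR), and that call was lost after correction for GC content and length. The share of gamma reads it took was 20.4% in BAF155 cKO, 22% in the libraries labelled Pax6 cKO and 20.7% in controls.

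Pcdhgc4, which mouse interneurons need for survival, measured 19.5, 28.0, 31.5 and 23.1 CPM in BAF155 cKO, 27.1, 26.9, 25.0 and 27.4 CPM in libraries labelled Pax6 cKO, and 24.8, 29.3, 24.7 and 28.6 CPM in controls. Its log2 fold changes were -0.08 ± 0.12 and -0.01 ± 0.12 (SE), and neither passed (adjusted p = 0.684 and 0.937, edgeR). Pcdhgc5, known to associate with GABA-A receptors in the rodent brain, measured 3.53, 4.03, 5.52 and 4.85 CPM, 4.42, 3.90, 3.72 and 4.50 CPM, and in controls 4, 3.60, 3.34 and 3.63 CPM. It was the 1 gamma gene with log2 fold changes above 0 in both comparisons, 0.28 and 0.18, and did not pass in either. Pcdhac1 measured 2.6, 2.18, 3.81 and 2.94 CPM in BAF155 cKO, 2.83, 2.72, 3.32 and 2.97 CPM in libraries labelled Pax6 cKO, and 3.24, 2.23, 2.37 and 3.44 CPM in controls, and its log2 fold changes were 0.00 ± 0.20 and 0.07 ± 0.19 (SE). Pcdhac2 measured 12, 13.6, 17.1 and 12.5 CPM in BAF155 cKO, against 17.9, 15.2, 14.7 and 15.2 CPM in controls, with overlapping groups (-0.20, adjusted p = 0.251, edgeR).

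**Figure D4:**
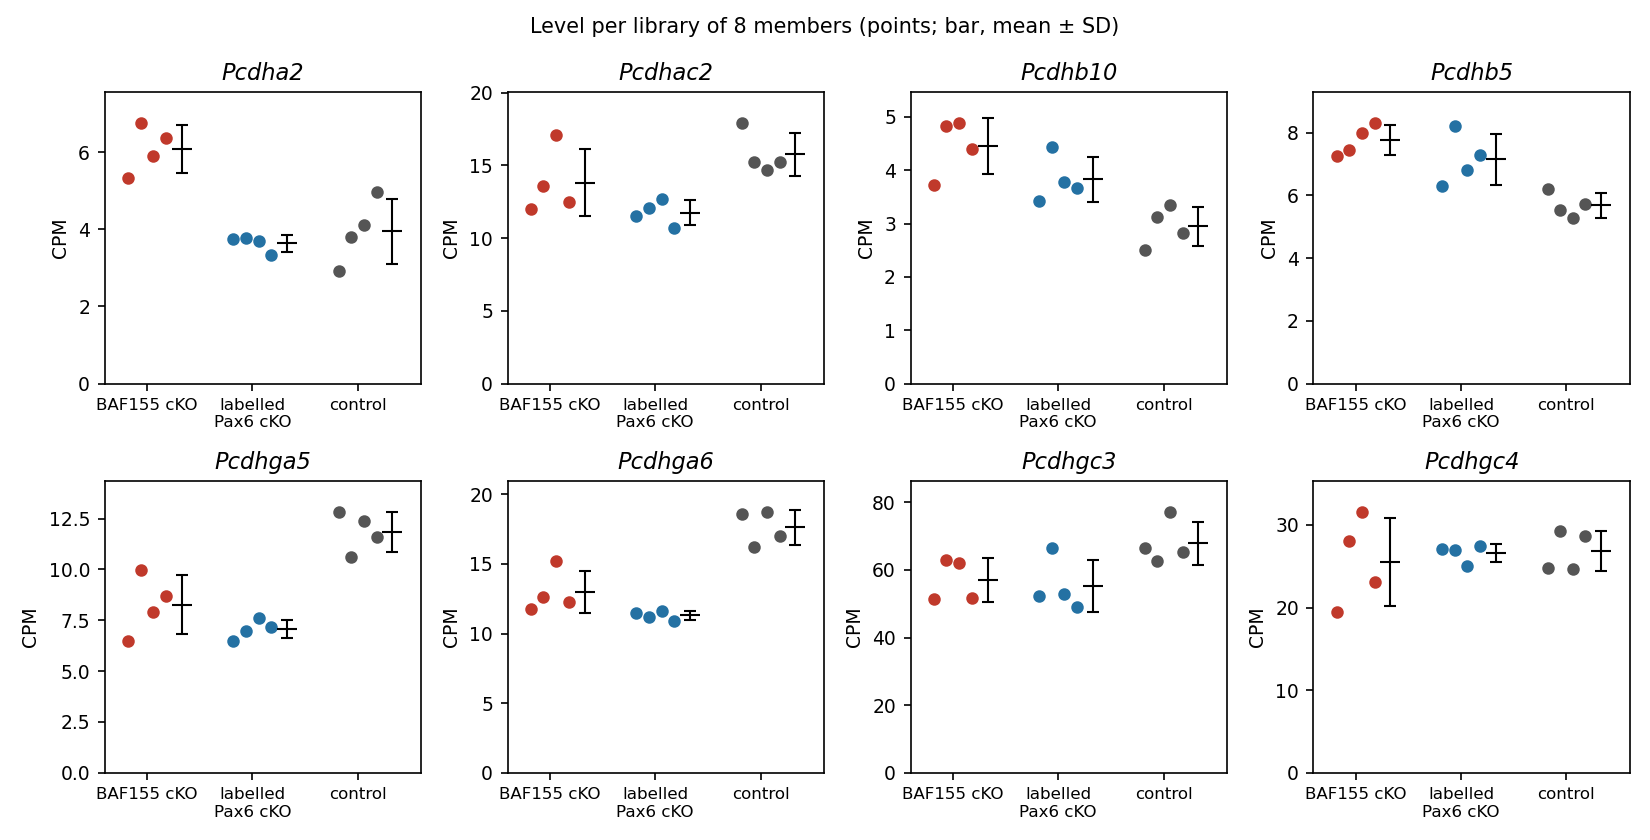
Level (CPM) of 8 members, with 1 point per library and the mean ± SD beside each group, for BAF155 cKO, the libraries labelled Pax6 cKO and controls. Pcdha2 is high in BAF155 cKO alone, Pcdhga5 and Pcdhga6 lie below every control in BAF155 cKO and in the libraries labelled Pax6 cKO, and the C-type Pcdhgc4 overlaps in all 3 groups.

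Set against each other without the controls' levels, BAF155 cKO and the libraries labelled Pax6 cKO differed at 2 members. Pcdha2 measured 5.32, 6.75, 5.90 and 6.38 CPM in BAF155 cKO, against 3.74, 3.78, 3.69 and 3.32 CPM in libraries labelled Pax6 cKO, a difference of 0.74 ± 0.16 on the log2 scale (SE; adjusted p = 0.014, edgeR). Pcdhb15 measured 2.33, 3.64, 3.42 and 2.62 CPM in BAF155 cKO, against 1.77, 1.83, 1.95 and 1.79 CPM in libraries labelled Pax6 cKO (0.71 ± 0.18, SE; adjusted p = 0.0373, edgeR). Neither gene's groups overlapped. The call of Pcdha2 was lost without replicate 4 of the libraries labelled Pax6 cKO (adjusted p = 0.0542), and that of Pcdhb15 without BAF155 cKO replicates 2 or 3 or any 1 of the libraries labelled Pax6 cKO (adjusted p up to 0.122, edgeR). Over all genes, 2.3% were called higher in BAF155 cKO, 2.01% lower and 4.31% in either direction. In 11 members every BAF155 cKO library lay above every library labelled Pax6 cKO, as in 7.5% of all genes, and in 0 every one lay below, as in 7.83% of all genes.

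The remaining members leaned the same way in this contrast. In all, 48 of 53 log2 fold changes were above 0, with a median of 0.25 against 0.01 for all genes, and the cluster medians were 0.26 for alpha, 0.27 for beta and 0.24 for gamma. None was called lower by edgeR, DESeq2 or limma-voom, and 0 were lower at an unadjusted p under 0.05. DESeq2 called 8 members higher, beside 4.37% of all genes called higher by that tool. The lean was uneven across BAF155 cKO libraries. With replicates 2 and 3 alone the gamma median was 0.40 and 12 members were higher, beside 706 of 17208 genes. With replicates 1 and 4 alone the gamma median was -0.01 and 0 were higher, beside 283 of 17208 genes.

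Base composition differed between the clusters and went with a trend over all genes. First exons held 39.1 to 49% GC in beta, 47.4 to 54.2% in gamma and 49.1 to 57% in alpha genes. For all other genes GC content and length were those of the longest transcript, an unlike measure. Over all genes, the median log2 fold change ran from 0.113 at up to 42% GC to -0.072 above 57% in BAF155 cKO against control, and from 0.206 to -0.088 in the libraries labelled Pax6 cKO against control. After a correction for GC content and length in each library, the beta median was 0.35 and the gamma median -0.21 in BAF155 cKO, and 0.13 and -0.46 in the libraries labelled Pax6 cKO. With the correction, 10 of the 11 calls in BAF155 cKO and 13 of the 15 in the libraries labelled Pax6 cKO were retained. Over all genes, the share called in either direction went from 13.6% to 12.9% and from 35.5% to 27.4%.

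A list of 28 genes known to act on the clusters held CTCF, cohesin and its loaders, DNA methylation enzymes and repressors such as SMCHD1, SETDB1 and WIZ. In BAF155 cKO against control, 0 passed in edgeR, 4 were lower and 2 higher at an unadjusted p under 0.05, DESeq2 called 1 lower and 2 higher, and limma-voom called 0. Over all 16511 genes, edgeR called 7.56% lower and 6.04% higher in that comparison at an adjusted p under 0.05. DESeq2 called 1534 of these genes lower and 1378 higher, and limma-voom 1159 and 817. The share of all genes at an unadjusted p under 0.05 is not given here. In the libraries labelled Pax6 cKO, 13 fell and 1 rose, beside 18.9% lower and 16.6% higher over all genes, with a median log2 fold change of -0.25. Rest, a repressor of neuronal genes, averaged 18.7 ± 0.699 CPM there and 25.4 ± 2.54 CPM in controls (log2 fold change -0.44, adjusted p = 0.00204, edgeR). Wiz, a zinc-finger protein that binds active promoters and CTCF sites in the mouse brain, averaged 112 ± 7.88 CPM and 167 ± 30.9 CPM in controls (-0.57, adjusted p = 0.00313). Nipbl, the cohesin loader, averaged 146 ± 6.5 CPM and 203 ± 22.1 CPM in controls (-0.48, adjusted p = 0.00338). Between BAF155 cKO and the libraries labelled Pax6 cKO, Rest alone of the 28 passed, higher in BAF155 cKO (0.37, adjusted p = 0.029, edgeR). In that contrast 2.3% of all genes were called higher and 2.01% lower.

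Of 23 genes for proteins that bind or relay protocadherin signals, 4 fell and 1 rose in BAF155 cKO, and 9 fell and 3 rose in the libraries labelled Pax6 cKO. The shares over all genes were 7.56% lower and 6.04% higher in BAF155 cKO, and 18.9% lower and 16.6% higher in the libraries labelled Pax6 cKO. Cyfip2, a subunit of the WAVE actin-regulating complex, averaged 191 ± 28.6 CPM in BAF155 cKO, 172 ± 8.61 CPM in the libraries labelled Pax6 cKO and 282 ± 45.4 CPM in controls. It fell by 0.56 on the log2 scale in BAF155 cKO (adjusted p = 0.0074, edgeR), and by 0.71 in the libraries labelled Pax6 cKO (adjusted p = 0.000716). Nlgn1, the synaptic adhesion protein neuroligin-1, averaged 44.3 ± 4.61, 47.4 ± 2.57 and 69.5 ± 7.09 CPM in the same groups, with log2 fold changes of -0.65 and -0.55 (adjusted p = 0.000349 and 0.000667, edgeR).

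Of the 12 protocadherins encoded outside the clusters, 2 fell and 3 rose in BAF155 cKO, beside 7.56% lower and 6.04% higher over all genes. In the libraries labelled Pax6 cKO 7 fell and 2 rose, beside 18.9% and 16.6% over all genes. Pcdh18 averaged 33.4 ± 3.48 CPM in BAF155 cKO, 24.2 ± 0.904 CPM in the libraries labelled Pax6 cKO and 43.8 ± 1.95 CPM in controls (log2 fold changes -0.39 and -0.85, adjusted p = 0.00682 and 5.03e-06, edgeR). Pcdh19, an X-linked gene, averaged 71.8 ± 11.7 CPM in BAF155 cKO, 41.0 ± 1.77 CPM in the libraries labelled Pax6 cKO and 54.1 ± 8.93 CPM in controls, and BAF155 cKO was higher than the libraries labelled Pax6 cKO by 0.81 on the log2 scale (adjusted p = 0.00213, edgeR), beside the difference in sex between these groups.

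Of 16 tested neighbours, 0 passed in BAF155 cKO against control in edgeR, DESeq2 or limma-voom, with 2 lower and 2 higher at an unadjusted p under 0.05. Over all genes, edgeR called 7.56% lower and 6.04% higher there at an adjusted p under 0.05, a stricter threshold than the unadjusted one. In the libraries labelled Pax6 cKO, 3 fell and 5 rose, beside 18.9% lower and 16.6% higher over all genes. Ndufa2, a subunit of mitochondrial complex I, averaged 114 ± 9.13 CPM there and 77 ± 11.2 CPM in controls (log2 fold change 0.56, adjusted p = 0.0021, edgeR). Diaph1, which lies beyond the gamma cluster, averaged 77.4 ± 1.79 CPM and 90.2 ± 3.77 CPM in controls (-0.22, adjusted p = 0.0279).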

How the data were processed

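The values were the raw read counts per gene deposited by the authors, 1 file per library, with no normalization and no header. Per the submitters' processing notes they are on mm10. The aligner, counting program and annotation were not given in the sources used here. Per the labels' protocols the kit was TruSeq RNA Sample Preparation v2, an unstranded one. Identifiers were matched to GENCODE M21 (48349 of 48709). Counts were analysed with edgeR 4.0.16 in R 4.3.3: filterByExpr (16511 genes kept), TMM scaling, and a quasi-likelihood fit of 12 libraries with 1 coefficient per group, adjusted over all genes. The fit was tested on simulated data. SE is the absolute log2 fold change divided by the root of F. DESeq2 1.42.0 and limma-voom (limma 3.58.1) were alternatives. RPKM used exon bases that no other gene covers. No 2 libraries of a group agreed within sampling noise. The members and gene lists were chosen with earlier results of these data known. Every member could be named. Values per library are given for the C-type genes, up to 8 called genes per direction and comparison, and the 2 most abundant per cluster, each in at least 1 comparison, and for Pcdha3, added after its values were seen. Of other lists, up to 3 called genes of smallest adjusted p per direction were open to naming. The labels do not say that the numbers 1 to 4 pair libraries, and the main fit did not pair them. Deviations of same-numbered libraries correlated at -0.228 to 0.377. The highest values, 0.377 and 0.323, were those of replicates 1 and 2 between BAF155 cKO and the libraries labelled Pax6 cKO.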

Additional observations from a re-analysis of the deposited data

Results flagged for a closer look

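In 6 of 171 groups of 4 libraries, 1 library stood far from the other 3, and chance alone gives about 1 such group in 20. Pcdhb3 was at 5.0 CPM in replicate 2 of the libraries labelled Pax6 cKO, against 3.84 to 3.92 CPM in the others, and the gamma sum of that library was 277 CPM. Pcdhb2 was at 3.73 CPM in control replicate 1, against 1.86 to 2.18 CPM, and Pcdhgb7 in the same control was at 9.25 CPM, against 10.6 to 10.8 CPM. Pcdhb16 was at 8.12 CPM in control replicate 3, against 7.2 to 7.27 CPM. Pcdhga8 was at 13.5 CPM in control replicate 4, against 9.61 to 10.2 CPM, and its call in BAF155 cKO was lost without that control.

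BAF155 cKO and the libraries labelled Pax6 cKO differed by a direct test at 2 members. Pcdha2 differed by 0.74 on the log2 scale between BAF155 cKO and the libraries labelled Pax6 cKO, higher in all 4 BAF155 cKO libraries, and was called in 11 of the 12 fits that left out 1 library. Pcdhb15 differed by 0.71, also higher in all 4, and was called in 6 of those 12 fits.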

How the results depend on the processing

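No called value changed sign under the alternatives run. RLE size factors moved no count of called members. In BAF155 cKO against control, the 8 higher calls became 4 without a filter on low counts, 0 with only the 8 libraries compared, 0 for the lane 1 pair, 3 for the lane 3 pair and 4 for replicates 1 and 4 alone. Over all genes, the share called in either direction was 13.6% in the main fit. It was 6.49%, 6.52%, 3.75%, 9.52% and 34.2% in these settings, in the same order. Leaving out 1 library gave 1 to 10, with 1 without BAF155 cKO replicate 4 or control replicate 4, 3 without control replicate 3 and 4 without BAF155 cKO replicate 3 or control replicate 2. The share of all genes called in these fits ran from 5.97%, without BAF155 cKO replicate 4, to 24.5%, without BAF155 cKO replicate 2. The 3 lower calls became 1 with the 8 libraries, 5 with same-sex controls, 1 for lane 1, 0 for lane 3, 0 for replicates 2 and 3, and 15 for replicates 1 and 4. They ranged from 1 without BAF155 cKO replicate 1 or control replicate 3 to 5 without BAF155 cKO replicate 3. Of all genes, 26% were called with same-sex controls and 3.81% for replicates 2 and 3. The median of 0.21 over all members became -0.04 for replicates 1 and 4 and ranged from 0.12 to 0.23 with 1 library left out.

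In the libraries labelled Pax6 cKO against control, the 14 lower calls became 5 with same-sex controls and 9 to 16 with 1 library left out, and the 1 higher call became 2 under a filter of 1 CPM in 4 libraries and 0 by limma-voom, without a filter, with the 8 libraries and with same-sex controls, with 0 to 2 when 1 library was left out. Of all genes, 35.5% were called in either direction in the main fit and 10.1% with same-sex controls. With 1 library left out that share ran from 22.7%, without control replicate 3, to 39.7%, without control replicate 1. It was 39.7% under the filter of 1 CPM, 35.3% by limma-voom, 16% without a filter and 40.7% with the 8 libraries. The median of -0.10 ranged with 1 library left out from -0.16, without replicate 2 of the libraries labelled Pax6 cKO, to -0.05, and was -0.04 with same-sex controls. Between BAF155 cKO and the libraries labelled Pax6 cKO, the 2 higher calls became 8 by DESeq2, 1 without a filter, 4 with the 8 libraries, 0 for either lane, 12 for replicates 2 and 3, 0 for replicates 1 and 4, and 0 to 4 with 1 library left out, with 0 without replicate 4 of the libraries labelled Pax6 cKO. Over all genes, the share called in either direction in this contrast was 4.31% in the main fit. It was 8.11% by DESeq2, 1.95% without a filter and 6.1% with the 8 libraries. For lanes 1 and 3 it was 2.63% and 1.16%, for replicates 2 and 3 it was 7.09%, and for replicates 1 and 4 it was 3.28%. With 1 library left out it ran from 1.83%, without replicate 4 of the libraries labelled Pax6 cKO, to 5.41%, without control replicate 1.

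With a replicate block, 5 members were higher and 3 lower in BAF155 cKO, 13 were lower in the libraries labelled Pax6 cKO, and 1 was higher in BAF155 cKO than in the libraries labelled Pax6 cKO. Over all genes, the block called 13.6%, 34.5% and 3.01% in either direction in these comparisons, in the same order. Of the 8 libraries in a comparison, 1, 1 and 4 correlated best with their own number, so the block rests on shared numbers only. The cause of these changes was not tested, beyond the smaller number of libraries in some fits. Over the 53 tested members, 161 calls were lost and 63 gained among 3704 log2 fold changes recomputed, 83 and 19 of them with 1 library left out. Over all exon bases, 48 of 75 RPKM values of 25 members moved by more than 1 SD. The pairs by mitochondrial share and the GC correction were chosen after seeing the data. At 7200 to 15482 member reads per library, genes below about 1 CPM, such as Pcdha1 and Pcdha8, had SEs up to 0.42.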
